A study of Mus musculus castaneus and Mus musculus domesticus with 13 samples.

Results

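The oxidative phosphorylation (OXPHOS) genes are the 131 rows of the 21706 genes measured whose symbols start with mt-, Nduf, Uqcr, Cox4, Cox5, Cox6, Cox7, Cox8 or Atp5, or are Sdha, Sdhb, Sdhc or Sdhd. Another 9 rows with such a symbol that contains -ps, the mark of a pseudogene, were left out. Of the members, 34 are encoded in mitochondrial DNA (13 protein genes, 2 ribosomal RNAs and 19 transfer RNAs) and 97 in the nucleus. The nuclear members were sorted into 77 structural subunits (37 of complex I, 4 of complex II, 8 of complex III, 11 of complex IV and 17 of complex V), 7 tissue-restricted paralogues, 8 assembly factors, 4 gene copies and Cox7a2l, a factor that joins complexes III and IV. All 131 passed the filter on low counts in every comparison.

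RNA was measured in 13 libraries of mouse cells. ntESCs are embryonic stem cell lines derived from blastocysts after the nucleus of a somatic cell was placed in an enucleated oocyte. Here 4 CAST lines (M2, M8, F1, F2) and 4 CASP lines (M3, M5, F4, F6) had donor nuclei of CAST/Ei and CASP/1Nga, wild-derived strains of Mus musculus castaneus, and 2 lines (M3, F2) had nuclei of B6D2F1, the F1 hybrid of C57BL/6 and DBA/2. M and F name male and female lines. In all of these lines the donor cells were peripheral leukocytes, the oocytes came from B6D2F1 females, and the cells grew on C57BL/6 feeder fibroblasts with 2i and LIF. The other libraries were 1 B6D2F1 embryonic stem cell (ESC) line made without nuclear transfer, 1 culture of CAST tail-tip fibroblasts (TTF) and 1 culture of B6D2F1 embryonic fibroblasts (MEF). Each ntESC library is 1 line, and the labels do not say that the lines of a strain came from separate animals. P-values between strains and sexes thus measure the spread between lines. Tests against fibroblasts pooled the ntESC strains and took the TTF and MEF as 1 group. Their spread therefore also holds differences of strain, tissue and culture.

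The libraries held 33395162 to 49968894 counts, and values are given as CPM, counts scaled to library size with TMM factors. The 7 pluripotency markers summed to 3071 to 4279 CPM in ntESCs, against 0.342 CPM in the TTF (6 of the 7 at 0) and 18.5 CPM in the MEF (3 at 0). The 10 fibroblast markers, none at 0, summed to 1709 to 2073 CPM in CAST lines, 1193 to 1580 CPM in CASP lines and 2108 to 2172 CPM in B6D2F1 lines, against 23181 CPM in TTFs and 9205 CPM in MEFs. The 5 leukocyte markers in the table, none at 0, summed to 45.9 to 59.5 CPM in CAST lines, 17.6 to 30.4 CPM in CASP lines, 66.4 to 74.8 CPM in B6D2F1 lines, 352 CPM in TTFs and 50.7 CPM in MEFs. Both lists thus moved with strain among the ntESC lines, and their part in the strain results was not tested. In such bulk libraries fewer cells of a type and less RNA per cell cannot be told apart. In CASP F4 the 654 genes of chromosome 8 with a mean of at least 5 CPM had a median log2 difference of 0.47 from the mean of the other CASP lines (other chromosomes -0.03), and in CASP F6 the 968 of chromosome 2 had 0.49 (others -0.00). For members that the naming rule gave, calls lost without both lines are stated beside the results. Calls of other members were not marked in this way.

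OXPHOS moves electrons from NADH and succinate to oxygen through complexes I to IV in the inner mitochondrial membrane, and complex V, the ATP synthase, uses the resulting proton gradient to make ATP. Complexes I, III, IV and V are assembled from subunits of both genomes, whereas complex II is wholly nuclear. Pluripotent cells make ATP by glycolysis as well as by OXPHOS. Because nuclear transfer joins a donor nucleus to an oocyte's mitochondria, both gene sets can come from different strains in 1 cell.

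Some OXPHOS genes have near-identical copies elsewhere in the genome, and reads can be hard to assign between gene and copy. A transcript sequence match (at least 90% identity over at least 100 bases on the same strand, covering at least 50% of the copy) found 43 other rows of the table that are copies of 31 members. Of these, 14 are copies of 11 mitochondrial genes and 29 are copies of 20 nuclear genes. The stretches below show how closely reads must be told apart. They were taken where mt-Co2 differs most, gaps aside, from a chromosome 2 copy, at 7 of 100 bases. A chromosome 1 copy differs there at none. Over all 684 aligned bases the chromosome 2 copy has 16 mismatches and 12 gap bases. Positions are GRCm38, the sequences are GENCODE M21 transcripts read 5′ to 3′, and capitals mark the bases at which mt-Co2 and its chromosome 2 copy differ.
mt-Co2, mitochondrial DNA, chrM:7466-7565, + strand: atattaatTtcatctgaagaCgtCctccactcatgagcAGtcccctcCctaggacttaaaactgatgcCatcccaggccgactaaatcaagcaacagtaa
Gm13341, chr2:22587422-22587521, - strand: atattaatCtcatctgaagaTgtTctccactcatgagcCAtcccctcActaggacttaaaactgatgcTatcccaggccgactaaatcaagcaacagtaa
Gm28661, chr1:24615013-24615112, - strand: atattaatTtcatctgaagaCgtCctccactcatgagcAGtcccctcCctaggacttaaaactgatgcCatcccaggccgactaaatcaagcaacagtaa

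A nuclear example is Ndufs5, an accessory subunit of complex I, and its processed pseudogene Ndufs5-ps, which match at all but 2 of 319 aligned bases. Both differences fall in the stretch shown, where capitals mark them.
Ndufs5, chr4:123715937-123716036, - strand: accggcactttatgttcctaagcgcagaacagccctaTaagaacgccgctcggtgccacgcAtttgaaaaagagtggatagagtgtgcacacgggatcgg
Ndufs5-ps, chr16:42955674-42955773, + strand: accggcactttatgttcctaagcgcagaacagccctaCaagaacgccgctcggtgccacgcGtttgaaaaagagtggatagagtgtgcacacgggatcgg

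The copies of mitochondrial genes were of 2 kinds. Of the 7 copies on chromosome 1, those identical to a whole mitochondrial gene had nearly its counts. The ratio of Gm28661 to mt-Co2, which encodes cytochrome c oxidase subunit 2, was 0.997 to 0.999 in all ntESC lines, 0.998 in the ESC and 0.999 in the MEF, but 0.699 in the TTF. The same ratio for Gm10222 and mt-Nd4l, a complex I gene, was at most 1.003 in ntESC lines and 1.002 in the TTF. How the authors' tools counted reads that fit both places is not given in the sources used here.

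The 7 copies on other chromosomes stood high only in the CAST TTF. Gm13340, a copy of mt-Co1 (cytochrome c oxidase subunit 1) on chromosome 2, had 6919 CPM in the TTF, against 7.16 to 12.1 CPM over the ntESC lines, 17.1 CPM in the ESC and 4.11 CPM in the MEF. Gm13341, the copy of mt-Co2 shown above, had 3002 CPM in the TTF, against 21.8 to 30.8 CPM over the ntESC lines and 10.04 CPM in MEFs. Gm13339 (a copy of mt-Nd2) had 753 CPM in the TTF and at most 1.62 CPM in the other 12 libraries. Gm4076 (a copy of mt-Nd5 on chromosome 13) had 506 CPM in the TTF and at most 0.0857 CPM elsewhere. The copies of mt-Cytb, mt-Nd5 and mt-Nd6 on chromosome 4 had 92.9, 66.9 and 2.13 CPM in the TTF and at most 0.103 CPM in any other library. Together these 7 rows took 0.935% of all TTF counts, against 0.00159% in the MEF and 0.00306 to 0.00456% in the ntESC lines, with 0.00402 to 0.00456% in CAST lines, 0.00306 to 0.00398% in CASP lines and 0.00334 to 0.00368% in B6D2F1 lines. Only the TTF has the cytoplasm of a CAST mouse, while the ntESC lines were made with B6D2F1 oocytes and the ESC and MEF are B6D2F1, so the source of the mitochondria, the tissue and the culture cannot be told apart for the TTF.

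The 13 mitochondrial protein genes took more of the library in ntESCs than in either fibroblast culture. Their share of all counts was 3.47, 3.73, 3.27 and 3.31% in CAST lines, 2.70, 3.04, 2.96 and 3.42% in CASP lines and 2.90 and 2.66% in B6D2F1 lines. The ESC had 3.16%, the TTF 2.55% and the MEF 1.44%. The CAST mean was 3.44 ± 0.21% (SD, n = 4), against 3.03 ± 0.30% in CASP (SD, n = 4) and 2.78 ± 0.17% in B6D2F1 (SD, n = 2). CAST lines lay above both B6D2F1 lines, and CASP lines overlapped with both. With the 14 copies added, the share was 4.23% in the TTF and 1.87% in the MEF, and the CAST ntESC mean was 4.40 ± 0.27%, so the TTF then lay within the range of the CAST ntESC lines (4.16 to 4.76%) and above the B6D2F1 ones (3.78 and 3.47%).

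**Figure D1:**
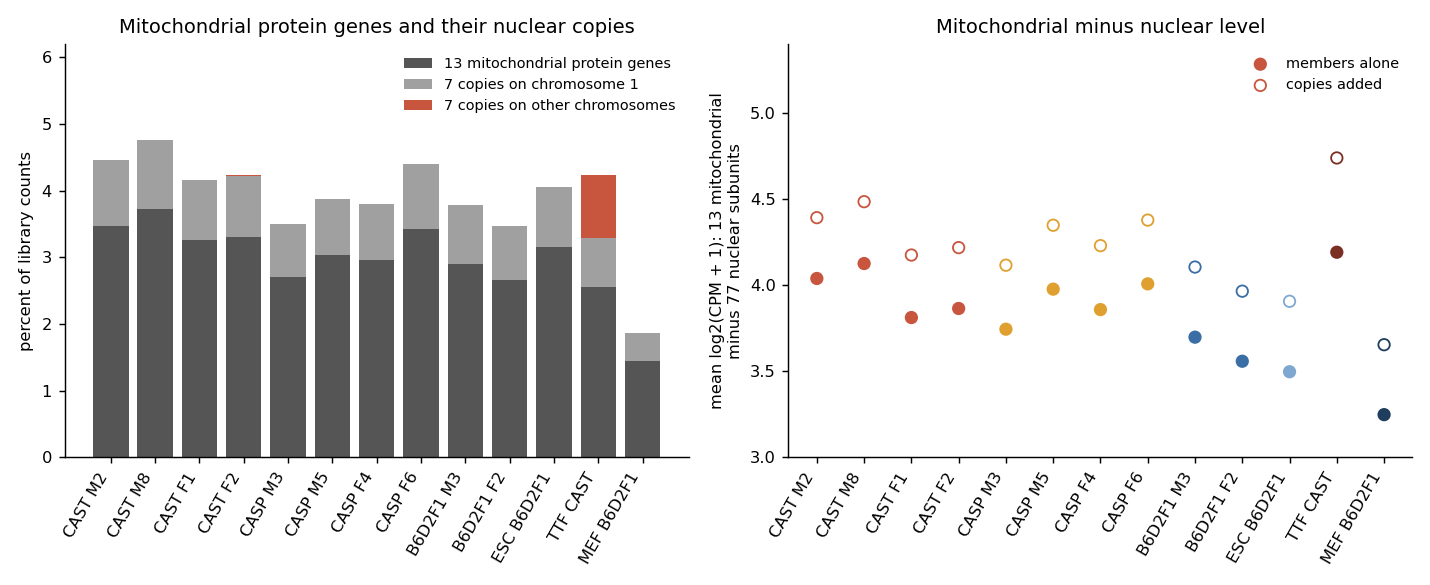
Left, percent of each library's counts in the 13 mitochondrial protein genes (dark), their 7 copies on chromosome 1 (light) and their 7 copies on other chromosomes (red), as stacked bars for 13 libraries; the red part is visible in the CAST TTF, where it is 0.935%. Right, mean log2(CPM + 1) of the 13 mitochondrial protein genes minus that of the 77 nuclear subunits, with (open) and without (filled) the copies; both B6D2F1 ntESC lines lie below all CAST and CASP lines.

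The nuclear members also took a larger share in ntESCs. All 97 together took 1.25 to 1.43% of the counts in ntESC lines and 1.43% in the ESC, against 0.755% in the TTF and 0.869% in the MEF. On a scale on which each gene weighs the same, the mean log2(CPM + 1) of the mitochondrial protein genes exceeded that of the 77 nuclear subunits by 3.96 ± 0.15 in CAST lines, 3.90 ± 0.12 in CASP lines (SD, n = 4 each) and 3.63 ± 0.10 in B6D2F1 lines (SD, n = 2). Both B6D2F1 values (3.70 and 3.56) lay under the lowest CAST (3.81) and CASP (3.74) values, while CAST and CASP overlapped. The TTF had 4.19, the MEF 3.25 and the ESC 3.50. As a score over chosen members, this contrast was given no test. Per kilobase of exon, the median of the 7 mitochondrial complex I genes was 888 to 1489 CPM per kb in ntESC lines, and that of the 37 nuclear complex I subunits was 37.2 to 50.6 CPM per kb. Exon length here merges the exons of all annotated transcripts of a gene, such as 5628 bases for Ndufb2 against 957 for mt-Nd1. It can exceed the length of the RNA of a nuclear gene, so the gaps per kb may be overstated. The mitochondrial genes also stood above the nuclear subunits of their own complex elsewhere, with mt-Cytb at 2344 to 4086 CPM per kb in ntESC lines against medians of 76.0 to 96.5 CPM per kb for the 8 nuclear complex III subunits. In complex IV these values were 2985 to 3802 CPM per kb for the 3 mitochondrial genes and 126 to 185 CPM per kb for the 11 nuclear ones, and in complex V 2844 to 4031 and 64.9 to 94.7 CPM per kb. The 4 subunits of the wholly nuclear complex II had medians of 45.7 to 56.4 CPM per kb.

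For 6 nuclear genes, picked after their values were seen, the counts of gene and copy differed between strains. Atp5h, subunit d of the ATP synthase stalk, on chromosome 11, had 39.9, 38.4, 40.8 and 43.4 CPM in CAST lines, 121, 115, 105 and 117 CPM in CASP lines and 115 and 113 CPM in B6D2F1 lines. Its processed pseudogene Gm10250 on chromosome 15 (99.0% identity) had 48.6 to 56.0 CPM in CAST lines, 16.6 to 18.1 CPM in CASP lines and 16.3 and 14.6 CPM in B6D2F1 lines. The ratio of copy to gene was therefore 1.23 to 1.36 in CAST lines and 1.25 in the CAST TTF, against 0.147 to 0.157 in CASP lines, 0.130 and 0.141 in B6D2F1 lines, 0.145 in the ESC and 0.136 in the MEF. The TTF, a different cell type with the CAST genome, thus had the ratio of the CAST ntESC lines.

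Ndufs5 had 21.1, 22.1, 27.8 and 26.8 CPM in CAST lines, 19.7, 18.1, 17.4 and 21.6 CPM in CASP lines and 51.7 and 50.2 CPM in B6D2F1 lines. Ndufs5-ps had 29.6 to 41.8 CPM in CAST lines and 25.8 to 32.7 CPM in CASP lines, but 0.544 and 0.394 CPM in B6D2F1 lines, 31.6 CPM in TTFs and 0.363 CPM in MEFs. Here both castaneus strains and the TTF stood together, apart from every B6D2F1 library. Summed, gene and copy had 57.4 to 63.7 CPM in CAST lines, 45.6 to 54.3 CPM in CASP lines and 52.3 and 50.6 CPM in B6D2F1 lines.

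Cox7a2l and its copy Gm6969 on chromosome 12, identical over 201 bases, showed 3 levels. The copy-to-gene ratio was 1.24 to 1.53 in CAST lines and 1.17 in the TTF, 0.455 to 0.512 in CASP lines, and 0.192 and 0.200 in B6D2F1 lines. Cox7a2l itself had 52.3 to 61.4 CPM in CAST lines, 88.4 to 96.1 CPM in CASP lines and 125 and 120.2 CPM in B6D2F1 lines. Summed with Gm6969 the 3 strains had 129 to 139.8, 132 to 143 and 144 to 148 CPM, without the steps of the gene alone. For Atp5md, a small membrane subunit of complex V, and its copy Gm14539 the ratio was 0.662 to 0.753 in CAST lines, 0.692 to 0.755 in CASP lines and 0.681 in the TTF, against 0.032 and 0.034 in B6D2F1 lines. For Cox5b, a complex IV subunit, and Cox5b-ps it was 0.413 to 0.479, 0.423 to 0.504 and 0.409, against 0.108 and 0.111. For Cox7c and Cox7c-ps1 it was 0.125 to 0.193, 0.150 to 0.172 and 0.181, against 0.001 and 0.002. Whether the reads of these rows came from the gene or from the copy was not tested.

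**Figure D2:**
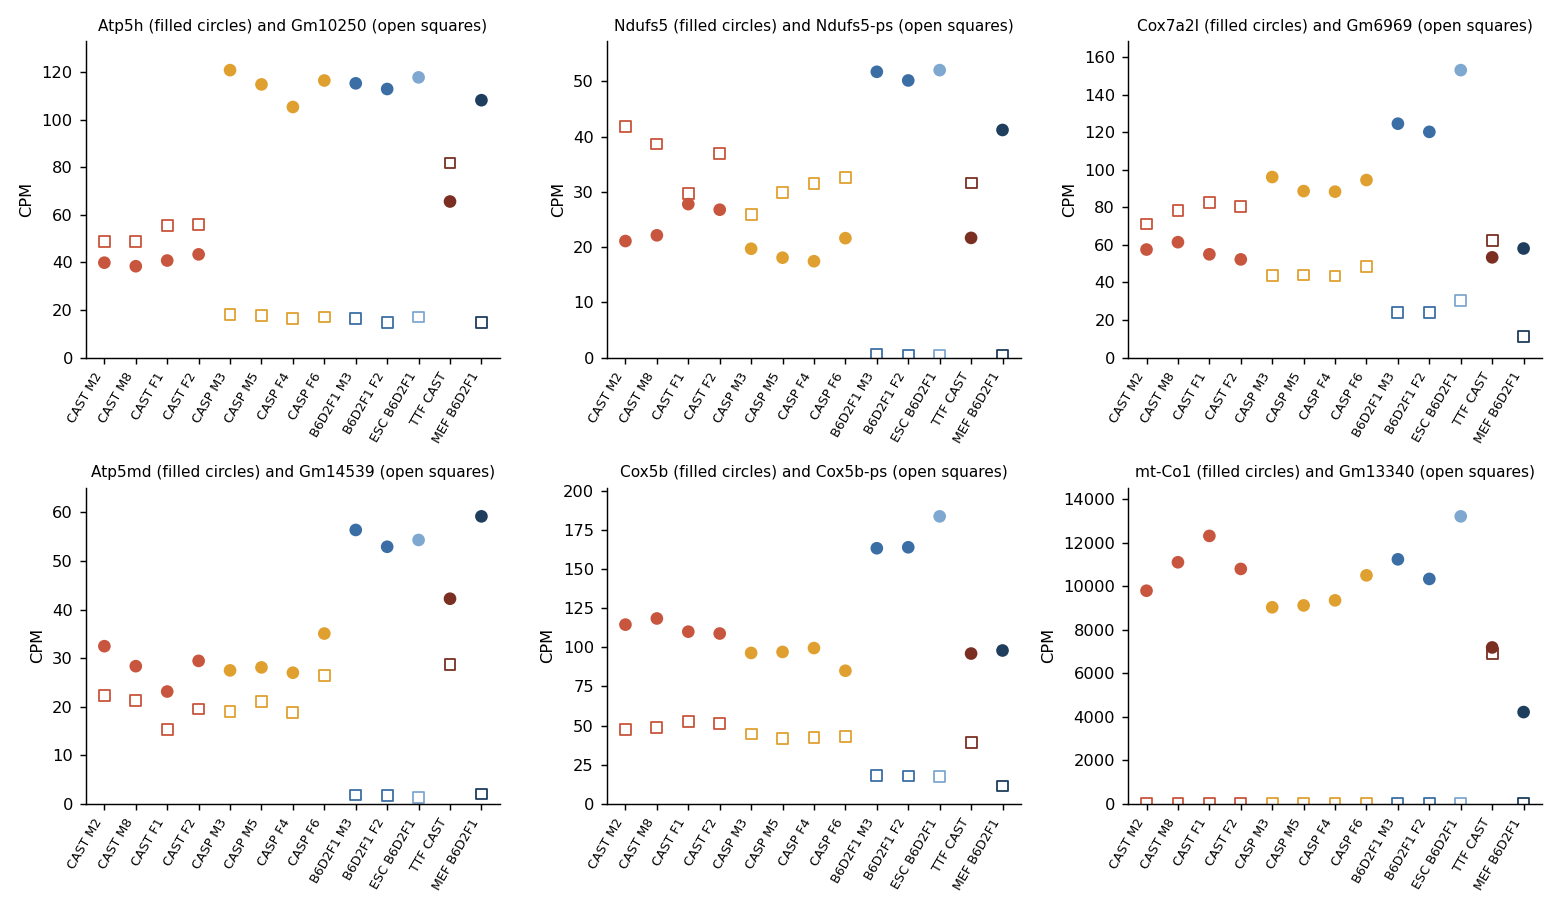
CPM of 6 members (filled circles) and of a near-identical copy of each (open squares) in 13 libraries, on linear axes that start at 0. The Atp5h and Gm10250 points trade places in the CAST lines and the CAST TTF, Ndufs5-ps is near 0 in every B6D2F1 library, and Gm13340 reaches 6919 CPM only in the TTF.

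CAST and B6D2F1 ntESC lines, which share the oocyte strain and differ in the donor nucleus, differed in 37 of the 131 members. By edgeR (adjusted p under 0.05 over all genes), 25 members (19.1%) were higher in CAST, against 17.4% of all 20226 genes tested, and 12 (9.16%) were lower, against 15.3% of all genes. The median log2 fold change of the members was 0.10 (all genes 0.03). With each copy's counts added to its gene, an alternative chosen after seeing the data, 25 were higher and 7 lower. The 5 calls lost were Ndufs5, Atp5md, Cox7a2l, Cox5b and Cox7c, all of them copy-bearing genes that were lower in CAST, and every call among the 100 members without copies stayed. Adding copies counts a read 2 times if it was counted in both rows. Without B6D2F1 M3 the members' median was 0.20 (all genes 0.05), and without B6D2F1 F2 it was 0.03 (all genes 0.04). The B6D2F1 side thus rests on a pair of lines. Scaling by library size alone gave 34 higher and 8 lower, against 3952 and 2553 of all 20226 genes tested.

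The mitochondrial members leaned toward CAST. All 13 protein genes had a positive log2 fold change, with a median of 0.28, and 4 (30.8%, all genes 17.4%) passed the test. mt-Nd2, a complex I gene, had 2106, 2506, 1817 and 1970.0 CPM in CAST lines, against 1296 and 1186 CPM in B6D2F1 lines (log2 fold change 0.74 ± 0.14 SE, edgeR adjusted p = 0.00327). mt-Cytb, the cytochrome b of complex III, had 4675, 4556, 3687 and 4091 CPM in CAST lines, against 2899.7 and 2682 CPM in B6D2F1 lines (0.59 ± 0.15, adjusted p = 0.0135). mt-Nd6 (0.57 ± 0.13, adjusted p = 0.00914) and mt-Nd5 (0.39 ± 0.12, adjusted p = 0.0298), both of complex I, were also higher, and in all 4 genes the strains did not overlap. The complex IV genes mt-Co1, mt-Co2 and mt-Co3 were within 0.11 of 0 on the log2 scale, and none passed. mt-Nd1, mt-Nd3, mt-Nd4 and mt-Nd4l lay between 0.25 and 0.37 and mt-Atp6 and mt-Atp8, the complex V genes, at 0.26 and 0.23, none past the test. Without B6D2F1 F2 only mt-Nd2 of the 4 kept its call, without B6D2F1 M3 mt-Nd2 and mt-Nd6 did, and mt-Nd5 lost its call without CAST M2 or M8 as well. mt-Nd6 lies on the strand opposite to mt-Nd5 and overlaps it at the end, and whether counting used strand is not given.

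Of the 19 transfer RNA rows 10 (52.6%, all genes 17.4%) were higher in CAST and none lower, with a median of 1.34. mt-Tl1, the leucine transfer RNA next to the ribosomal RNAs, had 81.4, 98.5, 65.2 and 58.8 CPM in CAST lines, against 17.3 and 16.3 CPM in B6D2F1 lines, 46.2 CPM in TTFs and 24.8 CPM in MEFs (log2 fold change 2.15 ± 0.22, edgeR adjusted p = 5.93e-05). These rows span 59 to 75 bases, less than a sequencing read, and the libraries were selected for poly(A), and which RNAs gave these counts was not tested. The ribosomal RNAs mt-Rnr1 and mt-Rnr2 did not pass.

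Among the nuclear subunits 10 were higher and 10 lower in CAST. The ATP synthase gave most of the higher ones, 6 of 17. Atp5mpl, a small membrane subunit, had 56.6, 59.4, 52.6 and 58.2 CPM in CAST lines, against 36.6 and 34.5 CPM in B6D2F1 lines (0.66 ± 0.12, edgeR adjusted p = 0.00189). Atp5g1, 1 of the genes for the rotor ring subunit c, had 155, 147, 146 and 175 CPM in CAST lines, against 97.8 and 103 CPM in B6D2F1 lines (0.62 ± 0.14, adjusted p = 0.00642). Atp5pb, the stator subunit b, was higher by 0.53 ± 0.10 (adjusted p = 0.00244) and Atp5g3, another subunit c gene, by 0.44 ± 0.14 (adjusted p = 0.0317). Atp5a1, the catalytic subunit alpha, and Atp5l were higher by 0.32 and 0.30. Atp5g1 and Atp5g3 lost their calls without either B6D2F1 line and Atp5pb without B6D2F1 F2, and Atp5g3 also without CAST M2, M8 or F2. Atp5h was lower by a log2 fold change of -1.50 ± 0.09 (adjusted p = 1.99e-06), which was -0.49 ± 0.10 with Gm10250 added (adjusted p = 0.00321). Atp5md had -0.96 ± 0.16 alone and -0.24 ± 0.16 with its copies.

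Complex IV gave the most lower calls, 5 of 11 (45.5%, all genes 15.3%), again a share of few genes. Cox5b had -0.55 ± 0.09 (edgeR adjusted p = 0.00124), Cox6b1 -0.45 ± 0.15, Cox7c -0.38 ± 0.08, Cox6c -0.31 ± 0.09 and Cox5a -0.25 ± 0.08, and Cox5b and Cox7c lost the call with copies added. Cox6b1 lost its call without any single CAST line, without either B6D2F1 line, without CASP M5, with library size only and with no filter (adjusted p = 0.0502 to 0.264). Cox8a, also of complex IV, was higher, with 258, 283, 336 and 297 CPM in CAST lines against 214 and 224 CPM in B6D2F1 lines (0.41 ± 0.12, adjusted p = 0.0213), a call lost without either B6D2F1 line. In complex I 1 of 37 subunits (2.70%) was higher and 3 (8.11%) were lower, both below the shares of all genes. Ndufa11, a membrane-arm subunit, had 97.0 to 106 CPM in CAST lines, against 70.3 and 68.0 CPM in B6D2F1 lines (0.52 ± 0.09, adjusted p = 0.00168). Ndufs5 had -1.08 ± 0.14 (adjusted p = 0.000245) alone and 0.24 ± 0.11 (adjusted p = 0.116) with Ndufs5-ps added, so its sign turned. The X-linked Ndufa1 (-0.49 ± 0.14) and Ndufv2 (-0.37 ± 0.11) were lower as well. In complex III Uqcrfs1, the Rieske iron-sulfur protein, and Uqcrb were higher by 0.38 and 0.28, and none of the 4 complex II subunits passed. Ndufb11b, a gene on chromosome 15 named for its likeness to the X-linked Ndufb11, had 6.53, 5.31, 6.12 and 6.69 CPM in CAST lines, against 18.6 and 19.6 CPM in B6D2F1 lines (-1.64 ± 0.17, adjusted p = 5.87e-05) and 5.50 CPM in the B6D2F1 ESC, so the ESC stood with the CAST lines and not with the ntESC lines of its own strain.

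CASP and B6D2F1 lines differed in 40 members by edgeR. Here 26 (19.8%) were higher in CASP, against 17.9% of all genes, and 14 (10.7%) were lower, against 17.5% of all genes, with a median of 0.09 (all genes 0.02). With copies added, 26 were higher and 10 lower, the calls of Ndufs5, Atp5md, Cox7a2l and Cox7c being lost. Without B6D2F1 M3 the members' median was 0.17 (all genes 0.06), and without B6D2F1 F2 it was 0.04 (all genes 0.04). This comparison shares its B6D2F1 lines with the one above.

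In CASP 2 of the 13 mitochondrial protein genes (15.4%) were higher, below the 17.9% of all genes. mt-Nd2 had 1697, 2204, 2016 and 2272 CPM in CASP lines, against 1296 and 1186 CPM in B6D2F1 lines (0.71 ± 0.14, edgeR adjusted p = 0.00371), and mt-Nd6 was higher by 0.44 ± 0.13 (adjusted p = 0.0276), a call lost without either B6D2F1 line, without CASP M5, and without F4 and F6 together. mt-Cytb had 0.35 ± 0.15 and did not pass (adjusted p = 0.101). Both ribosomal RNAs were higher, mt-Rnr2 with 418, 573, 508 and 666 CPM in CASP lines against 262 and 233 CPM in B6D2F1 lines (1.11 ± 0.21, adjusted p = 0.00218). mt-Rnr1 had 133 to 152 CPM in CASP lines, against 72.4 and 71.6 CPM in B6D2F1 lines (adjusted p = 0.00302). Both rows together took only 0.0301 to 0.0775% of the counts in ntESC lines. The libraries were selected for poly(A), and the part of that selection in the ribosomal RNA differences was not tested. Of the transfer RNA rows 9 of 19 (47.4%, all genes 17.9%) were higher and none lower.

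The nuclear subunits again split evenly, 11 higher and 11 lower in CASP. Each is 14.3% of the 77, below the 17.9% of all genes that were higher and the 17.5% that were lower. Atp5g1 had 149, 192, 175 and 218 CPM in CASP lines, against 97.8 and 103 CPM in B6D2F1 lines (0.85 ± 0.14, edgeR adjusted p = 0.001). Uqcrb, a small complex III subunit, had 129, 132, 138 and 145 CPM in CASP lines, against 86.8 and 84.4 CPM in B6D2F1 lines (0.65 ± 0.09, adjusted p = 0.000387). Atp5mpl (0.57 ± 0.12), Cox4i1 (0.57 ± 0.13) and Atp5g3 (0.51 ± 0.14) were higher too. Cox4i1, the common isoform of complex IV subunit 4 on chromosome 8, had 433, 418, 653 and 565 CPM in CASP lines, where 653 CPM belonged to F4, and without F4 and F6 its log2 fold change was 0.39 ± 0.10 (adjusted p = 0.0187). Atp5g3, on chromosome 2, had 326, 348, 331 and 469.7 CPM, where 469.7 CPM belonged to F6, and without both lines it had 0.46 ± 0.11 (adjusted p = 0.0138). Without B6D2F1 F2 the calls of Cox4i1, Atp5mpl and Atp5g3 were lost, and without B6D2F1 M3 that of Atp5g3.

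On the lower side, Ndufs5 had -1.43 ± 0.14 (edgeR adjusted p = 3.11e-05) alone and -0.08 ± 0.11 with its copy, and Atp5md -0.91 ± 0.16 alone and -0.16 ± 0.16 with its copies. Cox5b kept its call, with -0.81 ± 0.09 alone and -0.42 ± 0.08 with Cox5b-ps (adjusted p = 0.00284). Ndufa12, an accessory subunit of complex I, had 13.6, 15.8, 17.0 and 19.1 CPM in CASP lines, against 26.8 and 25.7 CPM in B6D2F1 lines (-0.70 ± 0.15), and Ndufa1 had -0.60 ± 0.14. Without B6D2F1 M3 both calls were lost, and without B6D2F1 F2 that of Ndufa1. Sdha, the flavoprotein of complex II, was lower by a log2 fold change of -0.29 ± 0.09 (adjusted p = 0.0274), a call lost without CASP M5, without either B6D2F1 line and without F4 and F6 (adjusted p = 0.109), whereas Sdhb, Sdhc and Sdhd did not pass. Ndufb11b had 4.39 to 5.55 CPM in CASP lines (-2.01 ± 0.17, adjusted p = 1.17e-05 against B6D2F1).

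Between both castaneus strains 34 members differed. By edgeR 18 (13.7%) were higher in CASP than in CAST, against 15.2% of all genes, and 16 (12.2%) were lower, against 16.4% of all genes. With copies added, 17 were higher and 17 lower. Scaling by library size alone gave 13 and 24, leaving out CAST M8 gave 12 and 7, leaving out CASP M5 gave 13 and 7, and leaving out CASP F4 and F6 together gave 9 and 18. In the same order, 2676 and 3711, 2212 and 2427, 2307 and 2486, and 2354 and 2563 of all genes were called. Atp5h had the largest difference of the nuclear members (1.49 ± 0.08, adjusted p = 1.06e-06), which was 0.50 ± 0.08 with Gm10250 added (adjusted p = 0.00104). Cox7a2l had 0.70 ± 0.08 alone and 0.02 ± 0.07 with Gm6969.

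The other calls were spread over the complexes. Cox6b1, a complex IV subunit, had 147, 171, 133 and 201 CPM in CASP lines, against 107, 102, 98.2 and 89.0 CPM in CAST lines (0.72 ± 0.13, edgeR adjusted p = 0.00193), and Uqcrb was higher by 0.37 ± 0.07. The complex I assembly factor Ndufaf2 was higher by 0.48 ± 0.15 (adjusted p = 0.0357) and lost this call when CASP F4, CASP M5 or any of CAST M2, M8 and F1 was left out, or F4 and F6 together (adjusted p = 0.116). Uqcrfs1 had 98.3, 95.6, 93.6 and 82.9 CPM in CASP lines, against 129.8, 145, 133 and 157 CPM in CAST lines (-0.62 ± 0.09, adjusted p = 0.000635). Atp5o, the stalk subunit OSCP, had 121 to 146 CPM in CASP lines and 187 to 229.7 CPM in CAST lines (-0.60 ± 0.08). Ndufs4 (-0.35 ± 0.08), Uqcrc1 (-0.34 ± 0.07), Atp5g2 (-0.26 ± 0.09) and Sdha (-0.22 ± 0.07) were lower as well, though Atp5g2 and Sdha lost their calls when any of several single lines was left out. Without F4 and F6 the calls of Uqcrc1 (adjusted p = 0.0544), Atp5g2 (0.111) and Sdha (0.198) were lost.

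The mitochondrial protein genes hardly separated CASP from CAST. mt-Co1 was lower by a log2 fold change of -0.22 ± 0.07 (edgeR adjusted p = 0.0491), and its groups overlapped. This call at the threshold was lost by DESeq2, without CASP F4 and F6 together and under several other settings. The other 12 lay between -0.25 and 0.24 and did not pass. Both ribosomal RNAs were higher in CASP (mt-Rnr2 0.85 ± 0.16, mt-Rnr1 0.57 ± 0.15), under the same limit of poly(A) selection. The transfer RNA rows had 3 higher (15.8%, all genes 15.2%) and 5 lower (26.3%, all genes 16.4%), mt-Tl1 with -0.68 ± 0.16.

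**Figure D3:**
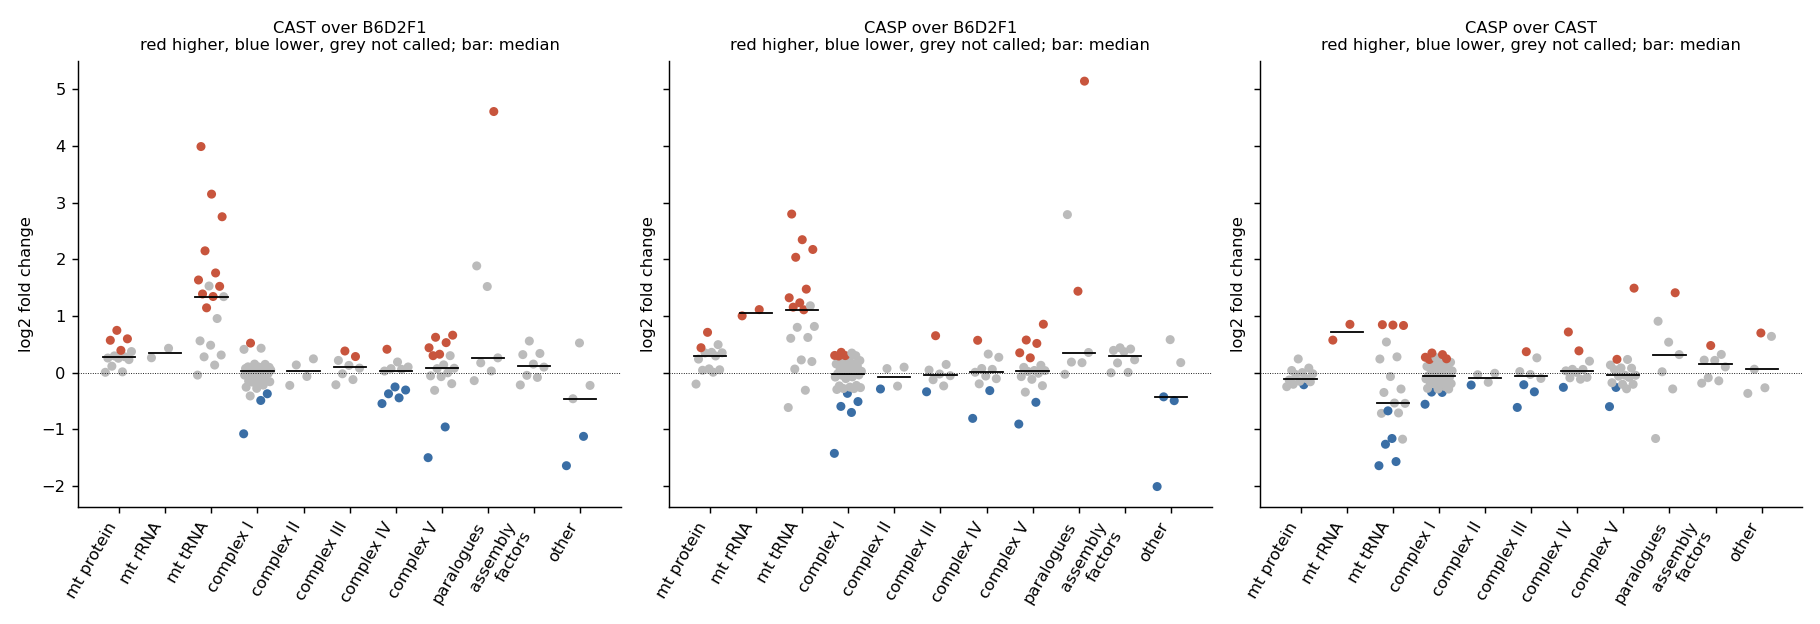
Log2 fold change of each member in 3 comparisons of ntESC strains (edgeR, sex as covariate), grouped by mitochondrial RNA class, by complex for nuclear subunits, and by other classes; red and blue points passed the test as higher and lower, grey ones did not, and bars are medians. The transfer RNA rows have medians of 1.34 (CAST over B6D2F1) and 1.11 (CASP over B6D2F1), and the nuclear subunits of each complex have medians between -0.11 and 0.10.

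Of the tissue-restricted paralogues Cox6b2 and Cox8c differed between strains. Cox6b2, the testis form of Cox6b1, had 114, 105, 114 and 119 CPM in CASP lines, against 37.2, 46.7, 50.7 and 35.4 CPM in CAST lines and 41.5 and 41.1 CPM in B6D2F1 lines (1.43 ± 0.16 over B6D2F1, edgeR adjusted p = 7.83e-05; 1.41 ± 0.12 over CAST, adjusted p = 2.05e-05). The ESC had 85.2 CPM, the TTF 31.3 CPM and the MEF 3.78 CPM, so a B6D2F1 line made without nuclear transfer stood nearer to CASP. Cox8c, a testis form of Cox8a, had 2.16 to 3.64 CPM in CASP lines and 1.73 to 2.58 CPM in CAST lines, against 0 and 0.158 CPM in B6D2F1 lines (adjusted p = 0.000299 for CASP and 0.000688 for CAST). Cox7a1, the heart and muscle form of Cox7a2, had 7.89 to 10.97 CPM in CAST lines, 9.08 to 14.3 CPM in CASP lines and 9.46 and 11.6 CPM in B6D2F1 lines, with overlap throughout. Cox7b2, a testis form of Cox7b, reached 5.17 CPM in CAST F2 and 4.62 CPM in CASP F4, with 0.247 to 2.64 CPM in the other ntESC lines. Ndufa4l2, a hypoxia-induced relative of Ndufa4, varied from 21.3 to 59.2 CPM among ntESC lines with no strain call, and the strains overlapped. Cox4i2, the lung and hypoxia form of Cox4i1, and Cox6a2, the muscle form of Cox6a1, had at most 3.29 and 1.11 CPM in ntESC lines.

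**Figure D4:**
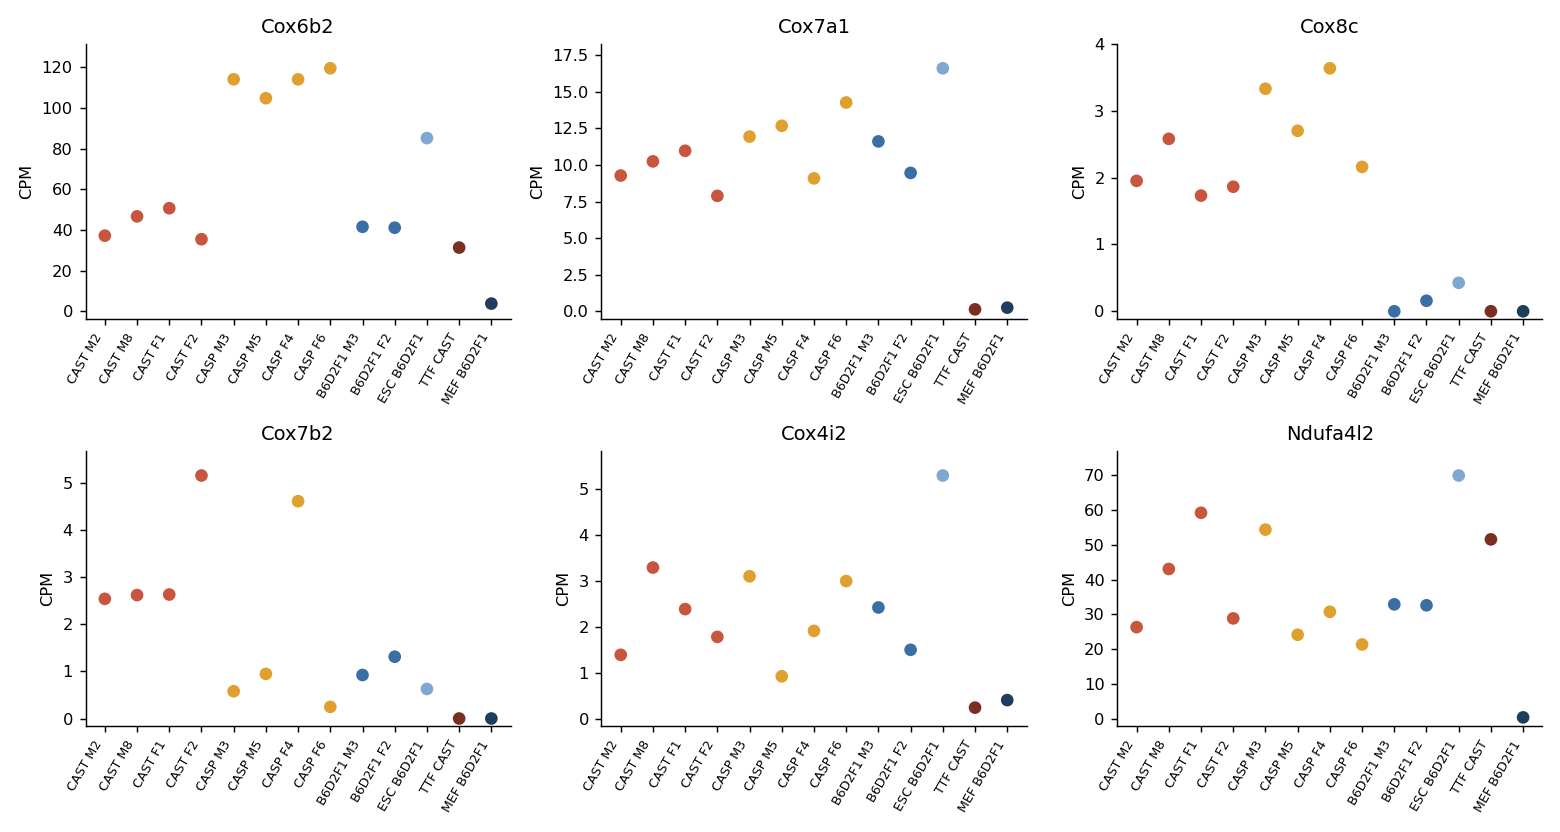
CPM of 6 tissue-restricted paralogues in 13 libraries, linear axes. Cox6b2 is highest in the 4 CASP lines (105 to 119 CPM), Cox8c is near 0 in B6D2F1 cells and at 0 in fibroblasts, and Ndufa4l2 is at 51.6 CPM in TTFs and 0.325 CPM in MEFs.

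No member passed the test between the 5 female and 5 male ntESC lines. Of all genes 0.00494% were higher and 0.0445% lower in females by edgeR, with 1199 of 20226 genes under an unadjusted p of 0.05. DESeq2 called 1 member, Cox7b. Of the 3 X-linked members, Cox7b, a complex IV subunit, had 208, 251, 214, 229 and 214 CPM in female lines, against 167, 172, 188, 180.4 and 173 CPM in male lines (0.34 ± 0.07, edgeR adjusted p = 0.338). For Cox7b alone of the 131 members, every female line lay above every male line. How many of all genes separated in this way was not counted. Ndufa1 averaged 35.1 ± 7.8 CPM in female lines and 27.6 ± 5.0 CPM in male lines (0.33 ± 0.10, adjusted p = 0.642). Ndufb11 had 0.16 ± 0.08 (adjusted p = 0.876).

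Of the members called between ntESC lines and fibroblasts, most were higher in ntESC lines. Against both fibroblast libraries 40 of the 131 members (30.5%) were higher in the 10 ntESC lines, against 23.6% of all 20896 genes tested, and 2 (1.53%) were lower, against 28.2% of all genes. The median log2 fold change was 0.33 (all genes 0.07). Both fibroblast libraries differ in strain, age and tissue, and the results depend on which is used. Without the TTF the members' median was 0.76 (all genes 0.19). Without the MEF it was 0.17, below that of all genes (0.37). When strains and fibroblast libraries were each given a coefficient of their own, the median was 0.35 (all genes 0.20). The spread in that fit came from the ntESC lines alone. The fibroblast markers given above move with this comparison by construction, and their part in the results was not tested.

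Among nuclear subunits the share of higher calls was 27.0% in complex I and 25% in complex II, near the 23.6% of all genes. It was 37.5% in complex III, 36.4% in complex IV and 35.3% in complex V, each of few genes. Complex I had 10 higher and 1 lower of 37, complex II 1 and 1 of 4, complex III 3 and 0 of 8, complex IV 4 and 0 of 11, and complex V 6 and 0 of 17. Atp5g1 had 97.8 to 218 CPM in ntESC lines, against 58.4 (TTF) and 52.9 CPM (MEF) (1.43 ± 0.29, edgeR adjusted p = 0.00115). Atp5a1 had 1452 to 2094 CPM in ntESC lines, against 629 (TTF) and 905 CPM (MEF) (1.15 ± 0.17, adjusted p = 0.000118). Cox5a, a complex IV subunit, had 202 to 256 CPM in ntESC lines, against 75.7 (TTF) and 119 CPM (MEF) (1.12 ± 0.17, edgeR adjusted p = 0.000175). The complex I assembly factor Ndufaf6 had 8.84 to 12.95 CPM in ntESC lines, against 3.29 and 6.05 CPM (1.14 ± 0.28, adjusted p = 0.00402).

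The exceptions were in complexes I and II. Ndufa2 had 30.7 to 42.6 CPM in ntESC lines, against 70.7 CPM in TTFs and 45.04 CPM in MEFs (-0.76 ± 0.18, edgeR adjusted p = 0.00304), and lost its call without the TTF. Sdhb, the iron-sulfur subunit of complex II, had 66.9 to 86.2 CPM in ntESC lines, against 77.8 CPM in TTFs and 117 CPM in MEFs (-0.43 ± 0.16, adjusted p = 0.0325), so its groups overlapped. Sdhb lost its call without the MEF, without CASP F4 and F6 together and without any of several single ntESC lines. Sdhd, the membrane anchor of complex II, had 148 to 197 CPM in ntESC lines, against 87.3 and 88.3 CPM in the TTF and MEF (0.87 ± 0.15, adjusted p = 0.000446). Sdha and Sdhc did not pass.

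Paralogues and copies gave the widest ratios. Ndufb11b, Cox7b2 and Cox8c had no count in either fibroblast library, where 3 counts in a library would be up to 0.0790 CPM. Taken against that level, the mean over ntESC lines was at least 103.79-fold higher for Ndufb11b. It was at least 27.3-fold higher for Cox7b2 and at least 25.47-fold higher for Cox8c, which also had no count in B6D2F1 M3. Cox7a1 had 7.89 to 14.3 CPM in ntESC lines, against 0.132 CPM in TTFs and 0.248 CPM in MEFs (5.73 ± 0.43, edgeR adjusted p = 5.08e-07), while its partner Cox7a2 had 0.14 ± 0.16 and did not pass. Cox4i2 was higher by 2.70 ± 0.59. Cox6b2 was 1.95 ± 0.78 and did not pass (adjusted p = 0.0506), with 31.3 CPM in TTFs and 3.78 CPM in MEFs.

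Of the mitochondrial protein genes 4 (30.8%) passed as higher in ntESC lines, against 23.6% of all genes. They were mt-Nd3 (1.28 ± 0.26, edgeR adjusted p = 0.00114), mt-Nd1 (0.97 ± 0.21), mt-Co1 (0.81 ± 0.18, adjusted p = 0.00275) and mt-Co2 (0.80 ± 0.16, adjusted p = 0.000996). With copies added, mt-Co1 had 0.18 ± 0.28 and mt-Co2 0.22 ± 0.25, and neither passed. mt-Co1 had 9035 to 12317 CPM in ntESC lines, against 7189 CPM in TTFs and 4217 CPM in MEFs. Summed with its copies it had 10143 to 13790 CPM in ntESC lines, against 14928 CPM in TTFs and 4787 CPM in MEFs, so the TTF moved from below all ntESC lines to above them. mt-Nd1, which had no copy, kept its call with 2624 to 4233 CPM in ntESC lines, against 1931 and 1347 CPM in the TTF and MEF.

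Within a strain the mitochondrial genes went different ways. These comparisons have 1 fibroblast library each and no test. All 13 mitochondrial protein genes were higher in both B6D2F1 ntESC lines than in the B6D2F1 MEF, where 48.7% of all genes were higher and 42.9% lower, with a median difference of 0.97 in log2(CPM + 1). In CAST, 4 were higher and 7 lower in all 4 ntESC lines than in the CAST TTF, where 48.7% of all genes were higher and 38.3% lower, with a median of -0.12. mt-Nd6 had 403 to 554 CPM in CAST lines against 978 CPM in the TTF, but 345 and 286 CPM in B6D2F1 lines against 159 CPM in the MEF. mt-Nd4 had 1480.5 to 1839.5 CPM in CAST lines against 2948 CPM in the TTF, and 1383 and 1221 CPM in B6D2F1 lines against 772 CPM in the MEF. mt-Nd3 kept 1 direction, with 142 to 219 CPM in CAST lines against 58.2 CPM in the TTF, and 162 and 135 CPM in B6D2F1 lines against 88.6 CPM in the MEF. With copies added, 10 of the 13 genes were lower in every CAST line than in the TTF and higher in both B6D2F1 lines than in the MEF. The share of all genes with such opposite directions was not counted. Strain, tissue, age and mitochondrial source of both fibroblast libraries cannot be told apart here.

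The nuclear subunits were also set against the fibroblasts of their strain. In CAST 43 of the 77 were higher and 18 lower in every ntESC line than in the TTF, with a median of 0.19, where 48.7% of all genes were higher and 38.3% lower. In B6D2F1 72 were higher in both ntESC lines than in the MEF and 4 lower, with a median of 0.43, where 48.7% of all genes were higher and 42.9% lower. Of the 77, 14 went opposite ways in both strains. How many of all genes did so was not counted, so no excess can be read from this number.

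**Figure D5:**
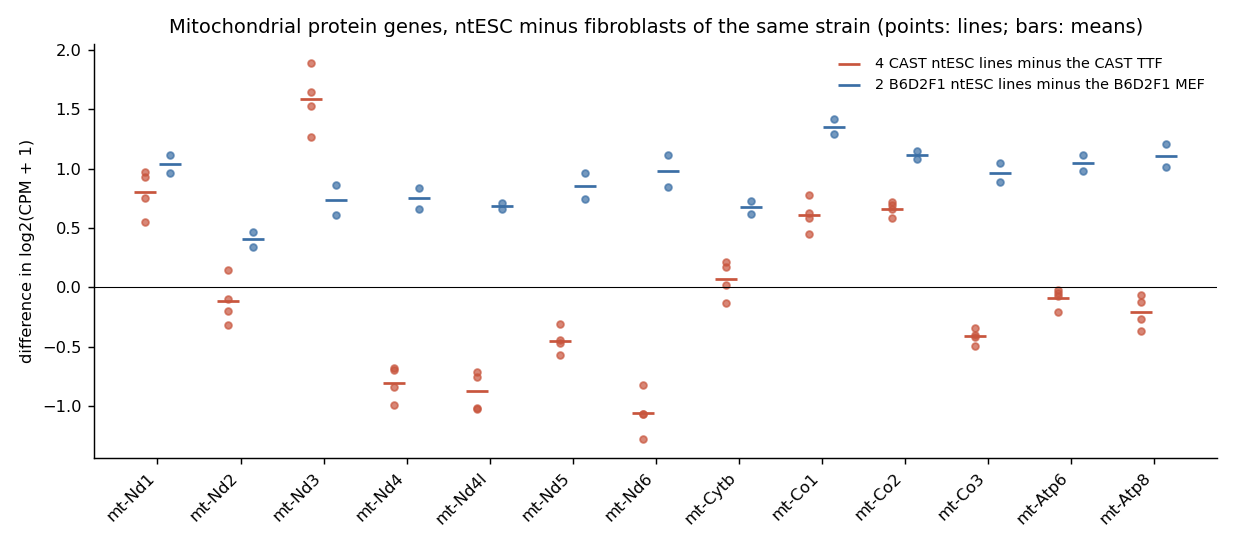
Difference in log2(CPM + 1) of the 13 mitochondrial protein genes between ntESC lines and the fibroblast library of the same strain; points are lines and bars their means. The 2 B6D2F1 lines lie above 0 in all 13 genes, while the 4 CAST lines lie below 0 in 7 of them, without copies added.

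Members on the chromosomes that stood apart were high in the same lines. In CASP F4 all 3 members on chromosome 8, Ndufa13, Ndufb7 and Cox4i1, exceeded the mean of the other CASP lines, with a median difference of 0.67. Ndufa13, of complex I, had 99.5 CPM in F4 and 59.9 to 66.2 CPM in the other CASP lines, and Ndufb7 had 81.3 CPM in F4 and 44.8 to 57.6 CPM in the others. In CASP F6 all 7 members on chromosome 2 with a mean of at least 5 CPM exceeded it, with a median of 0.54. Without both lines Cox4i1 lost its call between CASP and CAST.

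Other genes that serve OXPHOS were counted in the same fits from lists chosen with results of these data known. Of 78 mitochondrial ribosomal protein genes 37 were higher and 5 lower in ntESCs than in fibroblasts, with a median of 0.50 (all genes 0.07), where 23.6% of all genes were higher and 28.2% lower. Of 31 genes of mitochondrial DNA and RNA upkeep, such as Tfam and Polrmt, 15 were higher and 1 lower, with a median of 0.60. Assembly factors outside the rule had 12 higher and 9 lower of 43, regulators of mitochondrial biogenesis 3 and 3 of 12, and further subunits and carriers 3 and 1 of 8. Between strains 15.2 to 17.9% of all genes were higher and 15.3 to 17.5% lower, and most of these lists had calls both ways. The ribosomal proteins had 8 higher and 12 lower in CAST and 12 and 12 in CASP, both against B6D2F1, and 13 and 12 in CASP against CAST. Exceptions were the regulators, with 1 higher and 0 lower in CAST and 0 and 1 in CASP, both against B6D2F1. Further subunits and carriers had 0 and 1 in CASP against CAST.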

How the data were processed

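Poly(A) RNA of 13 libraries was sequenced as stranded pairs. Per the labels and methods, the authors used fastp 0.22.0 for trimming, HISAT2 2.2.1 for alignment to GRCm38 and StringTie 2.1.7 for quantification; the annotation is not given in the sources used here. Reads of every strain were aligned to this C57BL/6J genome, and the effect of castaneus sequence differences on the counts was not tested. The deposited counts are whole numbers per gene without normalization, and a second table of log2 values was not used. Totals were 33395162 to 49968894 counts. Gene positions and transcript sequences came from GENCODE M21 (21675 genes matched), and copies were found with blastn 2.17.0. CPM use TMM factors of all 13 libraries. Comparisons used the edgeR 4.0.16 quasi-likelihood test in R 4.3.3 after filterByExpr, with Benjamini-Hochberg adjustment over all genes and a threshold of 0.05. Strain comparisons fitted the 10 ntESC lines with sex as covariate, sex was tested with strain as covariate, and ntESCs were tested against both fibroblast libraries. The ESC was left out of the tests. The fits were tested on simulated data. The alternatives were RLE factors, library size only, scaling without mt- rows, no filter, DESeq2 1.42.0, no covariate, leaving out lines, coefficients per library and, added after seeing the data, summing copies into members. Named were all mitochondrial protein genes, paralogues with partners, Sdha to Sdhd, X-linked members in the sex comparison, members at 0 in a group, and up to 6 nuclear members per direction and comparison of largest change, without overlap and with a mean of at least 5 CPM in the higher group. Other genes named to spell out a count were chosen after their values were seen. The members and lists were chosen with earlier results of these data known. 1 result is not reported here. Fold changes are log2 with standard errors.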

Additional observations from a re-analysis of the deposited data

Results flagged for a closer look

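Of 109 groups of 4 lines tested, 4 held a value that stood apart from the other 3 lines of their strain by Dixon's criterion, and chance flags about 1 in 20 groups. Atp5pb had 391 CPM in CAST F2 and 329.8 to 333 CPM in the other CAST lines. Atp5g3 had 469.7 CPM in CASP F6, the line whose chromosome 2 genes stood apart, and 326 to 348 CPM in the other CASP lines. Atp5md had 35.1 CPM in CASP F6 and 27.0 to 28.1 CPM in the others. Cox7b2 had 5.17 CPM in CAST F2 and 2.54 to 2.64 CPM in the others.

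For 11 members that the naming rule gave every CAST ntESC line lay below the CAST TTF while both B6D2F1 ntESC lines lay above the B6D2F1 MEF. The difference between both log2 contrasts (CAST minus B6D2F1) was -1.55 for mt-Nd4, -1.56 for mt-Nd4l, -1.30 for mt-Nd5, -2.04 for mt-Nd6, -1.38 for mt-Co3, -1.13 for mt-Atp6 and -1.31 for mt-Atp8. It was -1.61 for Ndufa1, -1.04 for Cox6a1, -1.25 for Cox6b1 and -0.76 for Atp5h. Ndufa13, named only for its chromosome, met the same condition with -1.46. The difference was not tested, since each strain has 1 fibroblast library, and how many of all genes met this condition was not counted.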

How the results depend on the processing

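Leaving out 1 library at a time gave 16 to 47 members called for CAST against B6D2F1 (37 with all), 19 to 44 for CASP against B6D2F1 (40), 19 to 37 for CASP against CAST (34), 41 to 66 for ntESCs against fibroblasts (42) and 0 to 0 for sex. With 1 B6D2F1 line left, it is assumed to vary like the other lines, and calls over all genes against B6D2F1 fell as well. DESeq2 called 1 member for sex, and coefficients per strain and fibroblast library called 78 for ntESCs against fibroblasts. With library size only, the median of all genes for ntESCs against fibroblasts was 0.21 in place of 0.07, and the members' median 0.51 in place of 0.33. The other counts of members called stayed within 1.5 times under the settings run. Only Ndufs5 for CAST against B6D2F1 turned its sign, to 0.24, with copies added. Of the values of single named members under each setting, 294 stayed on the same side of the threshold and 29 lost their call for CAST against B6D2F1, 271 and 17 for CASP against B6D2F1, 226 and 44 for CASP against CAST, and 327 and 13 for ntESCs against fibroblasts. The cause of these changes was not tested. The mitochondrial share became 70.5% (CAST), 68.4% (CASP), 68.1% (B6D2F1) and 68.7% (fibroblasts) of the counts of members, and 4.40, 3.89, 3.63 and 3.05% of all counts with copies added. Leaving out lines gave shares of 3.35 to 3.50% (CAST), 2.90 to 3.14% (CASP), 2.66 to 2.90% (B6D2F1) and 1.44 to 2.55% (fibroblasts). The mitochondrial minus nuclear level with copies added was 4.32 (CAST), 4.27 (CASP) and 4.03 (B6D2F1), and leaving out lines gave 3.90 to 4.01 (CAST), 3.86 to 3.95 (CASP), 3.56 to 3.70 (B6D2F1) and 3.25 to 4.19 (fibroblasts) without copies. No paired analysis was possible because line numbers only name lines. With 1 TTF and 1 MEF library, differences between fibroblasts have no replicate, and transfer RNA rows under 1 CPM rest on few counts.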
